A study of Mus musculus with 2 samples.

Results

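Goblet cells of the colon are known by a small set of genes, and 9 of the 21041 genes in the deposited matrix were followed here because they belong to it. They were listed by name and not by a cut on their values, though with earlier results of these data known. They include the gel-forming mucin Muc2, the mucus layer proteins Fcgbp, Zg16 and Clca1, and the secreted peptides Tff3 and Spink4. The others are the protein-folding enzyme Agr2 and the lineage factors Atoh1 and Spdef. All 9 were in the matrix, and each was measured across the epithelial subtypes and across the 2 classes, CIN_high and CIN_low, that the authors assigned to the cells. The names refer to chromosomal instability (CIN).

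Goblet cells are secretory cells of the gut lining that fill their upper cytoplasm with mucin granules and release them to form the mucus that keeps bacteria away from the epithelium. They arise from crypt progenitors in which Notch signalling is low: Atoh1 then commits the cell to the secretory lineage and Spdef drives its maturation into a goblet cell. In intestinal adenomas, which grow when loss of Apc leaves Wnt signalling on, goblet cells are usually fewer than in normal mucosa.

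The cells came from distal colon adenomas of 25 week old mice of the strain Apcmin;LSL-mTERT, which carry the Apcmin mutation and an allele of mouse Tert that stays silent until a stop cassette is removed. Both groups, G0+T and G4+T, share both alleles, with 1 library each of dissociated adenoma cells; the labels do not say how many animals or adenomas went into a library. Every one of the 6189 CIN_high cells came from 1 library and every one of the 7908 CIN_low cells from the other, so class and library cannot be told apart. Neither library is assigned here to G0+T or G4+T, because all cell names start with G0, whereas the barcodes end in 1 or 2, numbers that the titles give to different groups.

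A level is given as the mean over cells of the unique molecular identifiers (UMIs, counted transcripts) per 10000 UMIs of a cell. Because each class was a single library, no value below has a replicate, and no test over mice was possible; any gap between the classes may equally be a gap between 2 tissue samples. Intervals are exact 95% intervals that cover counting error only. An interval printed beside a ratio is for summed UMIs, which weight cells by depth, and need not enclose the ratio of mean levels. The libraries held 51868113 (CIN_high) and 74733715 UMIs (CIN_low), with medians of 14032.5 and 15364 UMIs per epithelial cell and 3505 and 3904 per lymphocyte. The libraries shared 11 cell barcodes. A gene counts as measured in a group of cells where at least 2% of them, both libraries together, had a UMI, and as higher or lower where its level differed by at least 1.5-fold.

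The authors annotated 1316 CIN_high and 1725 CIN_low cells as epithelial and divided them into 9 subtypes, 7 of which held at least 20 cells in each library. The cells they named Secretory_cell numbered 54 in the CIN_high library (4.10% of epithelial cells, 3.10% to 5.32%) and 48 in the CIN_low library (2.78%, 2.06% to 3.67%). Epcam, an epithelial adhesion protein, had a UMI in all of these cells. Of 10 goblet cell markers other than the 9 genes, 9 had UMIs in each library, with summed levels of 37.6 and 30.9 in Secretory cells against 0.867 and 0.791 in the other epithelial cells. All 7 deep crypt secretory or Paneth-like markers were also present, at 187 and 203 summed against 4.43 and 4.42 elsewhere, and 41 of 54 and 38 of 48 Secretory cells had UMIs of at least 3 of them. Enteroendocrine markers were near 0 there (0.114 and 0.504 summed, 2 and 3 of 12 genes with a UMI), as were T and NK cell markers (0.00658 and 0.0525), while myeloid markers stood at 1.91 and 10.0. The cluster thus held goblet cell and deep crypt secretory transcripts together, and its authors may have drawn it with some of the 9 genes, so Secretory cells against the rest is a description and not a test.

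Promoters of 5 of the 9 genes were found in the RefSeq table for GRCm38.p6. The 250 bases upstream of the start are shown for Muc2, which differed most between the libraries among the measured genes that were higher, for Fcgbp, which had its next highest level in p57+ cells in both libraries, and for Agr2, which was detected most broadly. Capitals mark matches to CANNTG, the E-box core read by basic helix-loop-helix factors, the family of Atoh1.
Muc2, chr7:141690090-141690339, plus strand: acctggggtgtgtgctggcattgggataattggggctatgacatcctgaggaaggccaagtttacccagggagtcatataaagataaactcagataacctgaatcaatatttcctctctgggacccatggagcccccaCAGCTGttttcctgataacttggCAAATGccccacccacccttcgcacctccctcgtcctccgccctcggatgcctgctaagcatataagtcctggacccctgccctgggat
Fcgbp, chr7:28070986-28071235, plus strand: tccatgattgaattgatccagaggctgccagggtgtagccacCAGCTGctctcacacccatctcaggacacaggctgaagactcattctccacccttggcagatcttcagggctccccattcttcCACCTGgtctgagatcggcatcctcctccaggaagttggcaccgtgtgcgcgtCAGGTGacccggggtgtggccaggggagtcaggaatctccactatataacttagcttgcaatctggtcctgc
Agr2, chr12:35992675-35992924, plus strand: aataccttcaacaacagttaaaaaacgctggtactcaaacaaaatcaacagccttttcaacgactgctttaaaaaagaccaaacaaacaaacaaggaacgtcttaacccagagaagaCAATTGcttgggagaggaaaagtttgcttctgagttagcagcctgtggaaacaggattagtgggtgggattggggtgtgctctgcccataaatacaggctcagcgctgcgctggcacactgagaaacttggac

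The windows searched ran from 250 bases before to 50 bases after the start, 300 bases in all, on both strands. Muc2 held the E-box CAGCTG at position -112 from the start and CAAATG at -89. Fcgbp held 4 E-boxes, CAGCTG at -208, CACCTG at -125 and CAGGTG at -72 and at 15, the last of them downstream of the bases shown, and Agr2 held CAATTG at -133. TTTAT, the core read by caudal-type homeobox factors such as Cdx2, lay on the reverse strand of Muc2 at -173 and -167 and of Agr2 at -46, and on the forward strand of Spdef at -191. The Atoh1 window held neither motif and the Spdef window no E-box. Over 32851 promoters of the same length, 72.3% held CANNTG, 16.3% held CAGCTG, which is counted among the CANNTG matches, and 40.0% held TTTAT. A match is a run of letters and not a measured site, and no binding data bear on it here.

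Muc2 lies on chromosome 7 (141690340 to 141754693, GRCm38) together with Fcgbp (28071236 to 28120862) and Zg16 (127050156 to 127087328). Clca1 lies on chromosome 3 (145003817 to 145032776), Spink4 on chromosome 4 (40920052 to 40931395), Atoh1 on chromosome 6 (64729125 to 64731245) and Agr2 on chromosome 12 (35992907 to 36004087). Tff3 (31125306 to 31129646) and Spdef (27714352 to 27728955) lie on chromosome 17. All 9 are annotated as protein-coding.

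In both libraries each of the 9 genes had its highest level in Secretory cells among the 7 subtypes. Muc2, the mucin that forms the scaffold of colonic mucus, reached 72.3 UMIs per 10000 in Secretory cells of the CIN_high library and 30.4 in those of the CIN_low library. The next subtype was at 0.95 (Enterocyte) and 0.0754 (Stem_cell_1). The lowest of the 7 subtypes were at 0.0906 (Cancer_cell_1) and 0.00641 (Complement+_stem_cell), below the lymphocytes, which should lack Muc2 and were at 0.186 and 0.0563.

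Among the other mucus layer proteins, Fcgbp, which binds to Muc2 in the mucus, was at 5.19 and 9.18 in Secretory cells and next highest in p57+_cancer_cell, at 0.169 and 0.279. Zg16, a lectin that aggregates bacteria, was at 7.95 and 44.9, followed by 0.739 in CIN_high enterocytes and 0.0106 in CIN_low p57+_cancer_cell. Clca1, a secreted protease that processes Muc2, was at 0.265 and 2.41. For Clca1 the top of the order was narrow in the CIN_high library, where enterocytes stood at 0.252 from 18 UMIs beside 12 UMIs in Secretory cells.

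Spink4 gave the most UMIs of the set. This gene, a Kazal-type protease inhibitor of goblet cells, was at 181 and 106 in Secretory cells, with 1.25 in the next of the 7 subtypes in the CIN_high library (Proliferating) and 0.495 in that of the CIN_low library (Enterocyte). Outside these 7, Igfbp+_cell (25 CIN_high cells) stood at 11.8 and S100a8/s100a9+_cell (36 CIN_low cells) at 4.50. Tff3, the trefoil peptide released with mucin, was at 38.5 and 66, followed by enterocytes at 0.518 and 0.339.

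Agr2, a disulfide isomerase of the endoplasmic reticulum needed for Muc2 folding, was the gene found in the most epithelial cells outside the Secretory subtype in both libraries. It was at 39.5 and 37.2 in Secretory cells and at 2.03 and 1.98 in enterocytes, 19.4-fold and 18.7-fold lower. The lineage factors were low throughout: Atoh1 stood at 0.361 and 0.302 in Secretory cells (46 and 15 UMIs) and Spdef at 1.14 and 1.16 (96 and 70 UMIs). Spdef was next highest in Proliferating cells of the CIN_high library (0.0656, 11 UMIs) and in Complement+_stem_cell of the CIN_low library (0.0178, 3 UMIs).

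**Figure D1:**
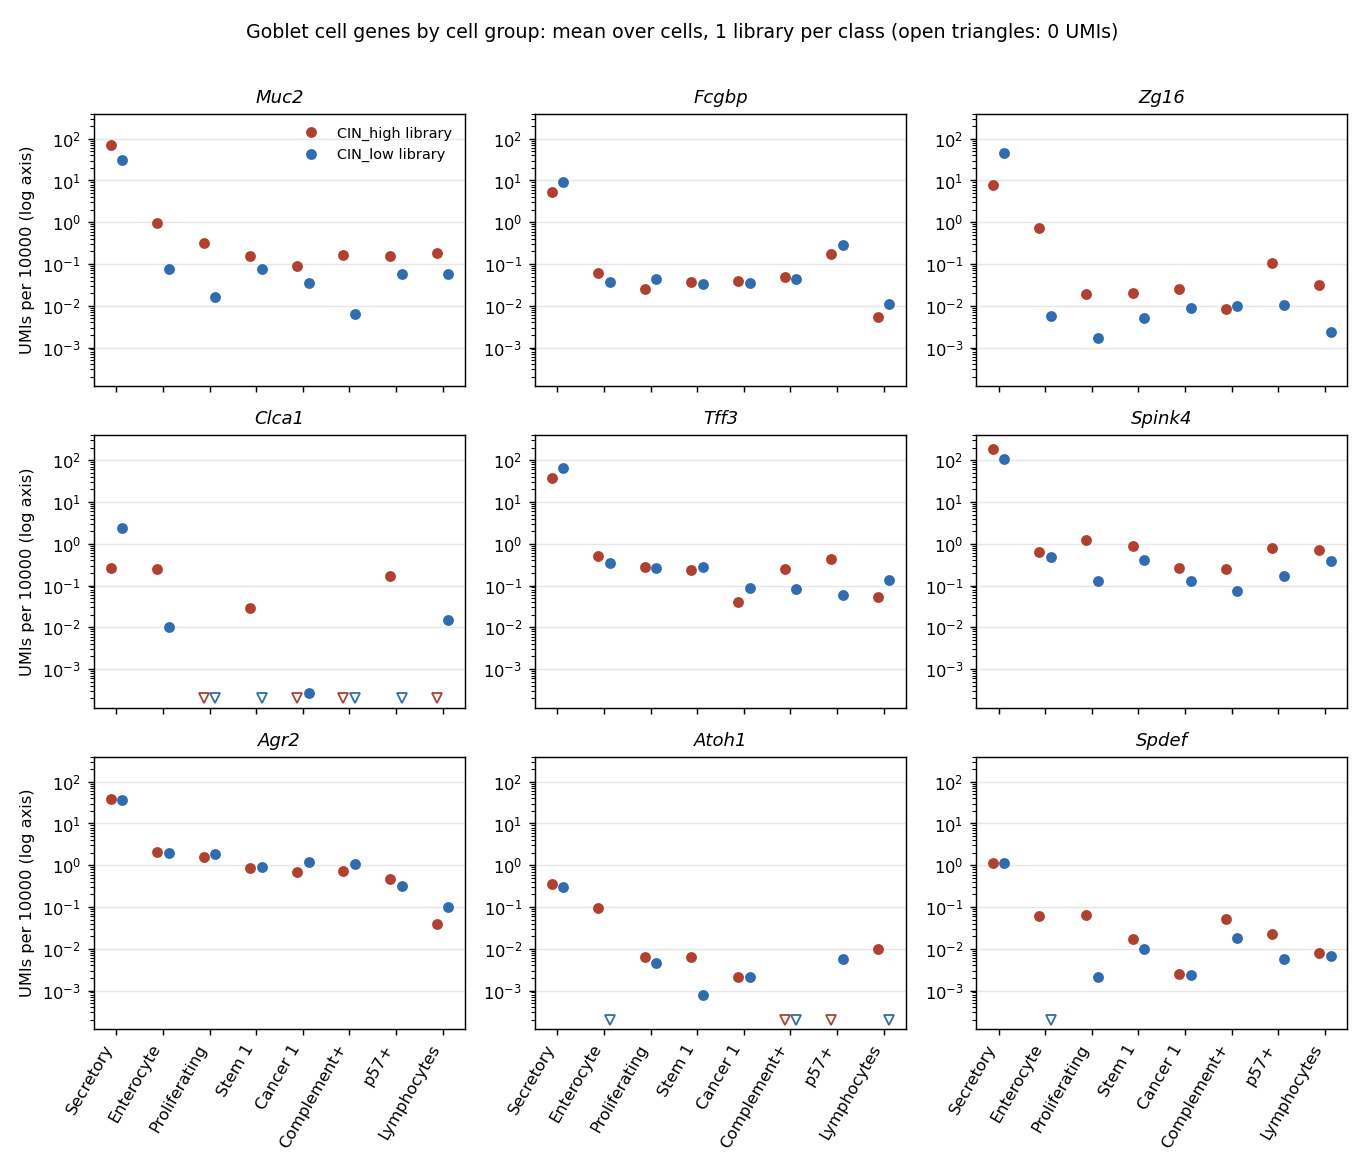
Mean level of each gene (UMIs per 10000, log axis) in 7 epithelial subtypes and in lymphocytes, with the CIN_high library in red and the CIN_low library in blue; open triangles mark groups with 0 UMIs. Each gene peaks in Secretory cells, from 181 for CIN_high Spink4 down to 0.265 for CIN_high Clca1, where enterocytes stand close behind at 0.252.

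Most of the UMIs of these genes in epithelium lay in a small number of cells. Secretory cells held 87.1% of the epithelial Muc2 UMIs of the CIN_high library and 92.4% of those of the CIN_low library. The shares were 90.0% and 93.5% for Spink4 and 90.1% and 90.2% for Tff3. They were 82.2% and 71.4% for Fcgbp, 76.7% and 71.4% for Atoh1 and 73.3% and 77.8% for Spdef. Agr2 was less confined to these cells, at 66.8% and 38.2%.

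Zg16 and Clca1 were set apart by how few cells carried them. No Zg16 UMI was found in 1267 of the 1316 epithelial cells of the CIN_high library or in 1708 of the 1725 of the CIN_low library, and 6 of 54 and 4 of 48 Secretory cells had a Zg16 UMI. The 3 cells with the most Zg16 held 72.0% and 98.0% of its epithelial UMIs, against 26.5% and 36% for Muc2. For Clca1 the 3 top cells held 63.9% of 61 UMIs and 87.5% of 64 UMIs. In the CIN_high library these 3 Clca1 cells were annotated Stem_cell_1 (16 UMIs), p57+_cancer_cell (15 UMIs) and Enterocyte (8 UMIs), and Secretory cells held 19.7% of the Clca1 UMIs, against 93.8% in the CIN_low library.

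**Figure D2:**
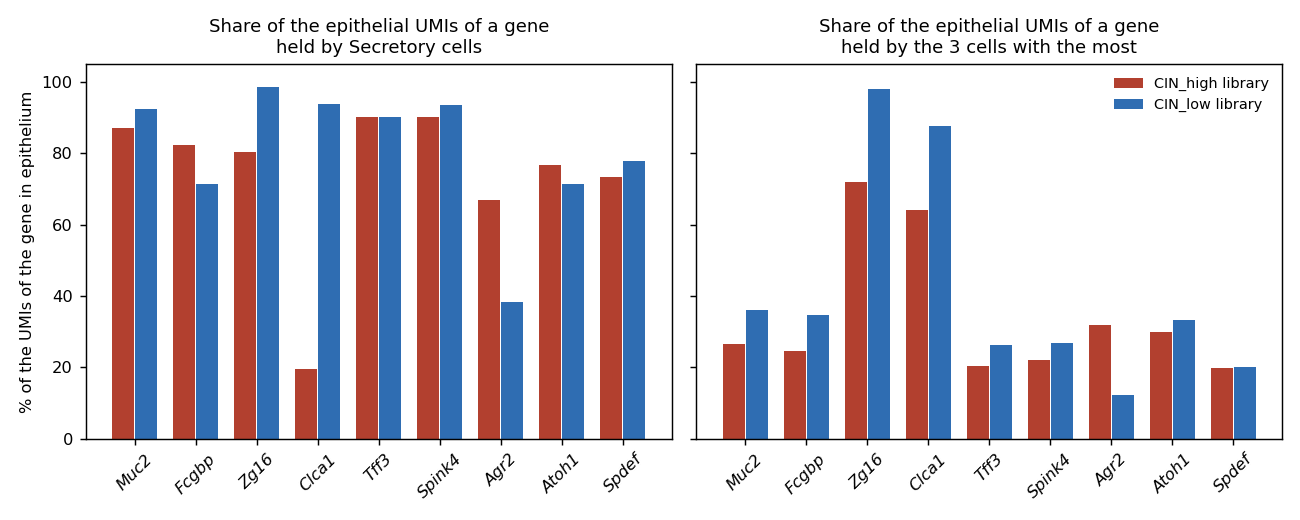
Percent of a gene's epithelial UMIs that lay in Secretory cells (left) and in the 3 cells with the most UMIs of that gene (right), for the CIN_high (red) and CIN_low (blue) library. The 3 top cells hold 98.0% of the Zg16 UMIs of the CIN_low library, and Agr2 and CIN_high Clca1 are the genes with the smallest shares in Secretory cells.

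Within Secretory cells, Spink4 and Agr2 were found in 54 of 54 CIN_high and 46 of 48 CIN_low cells. Tff3 had a UMI in 94.4% and 97.9% of the cells and Muc2 in 94.4% and 79.2%. Spdef was found in 70.4% and 70.8%, Fcgbp in 64.8% and 70.8%, Atoh1 in 40.7% and 22.9%, and Clca1 in 11.1% and 12.5%. With each cell thinned to 2000 UMIs, which leaves out 2 shallower CIN_high cells, Muc2 was expected in 86.9% and 65.1% and Atoh1 in 7.08% and 5.80%.

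The levels varied widely from cell to cell. Muc2 ran from 0 to 542 UMIs per 10000 with a median of 27.7 in the CIN_high library, and from 0 to 257 with a median of 9.53 in the CIN_low library. Spink4 had medians of 132 and 92.8 and Tff3 of 24.5 and 36.1. The medians of Agr2 were 27.4 and 22.1 and those of Fcgbp 1.41 and 1.90. Zg16, Clca1 and Atoh1 had a median of 0 in both libraries.

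A count of how many of the 9 genes a cell carried separated the Secretory cells from the rest. At 2000 UMIs per cell, 44.9% of CIN_high and 36.6% of CIN_low Secretory cells were expected to carry 5 or more of them (77.8% and 83.3% without thinning), with means of 4.43 and 4.18 genes per cell. Of Cancer_cell_1 cells 83.5% and 80.6% were expected to carry none, and of lymphocytes 90.4% and 90.3%. These shares moved with the depth chosen and are given at other depths in the closing section.

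**Figure D3:**
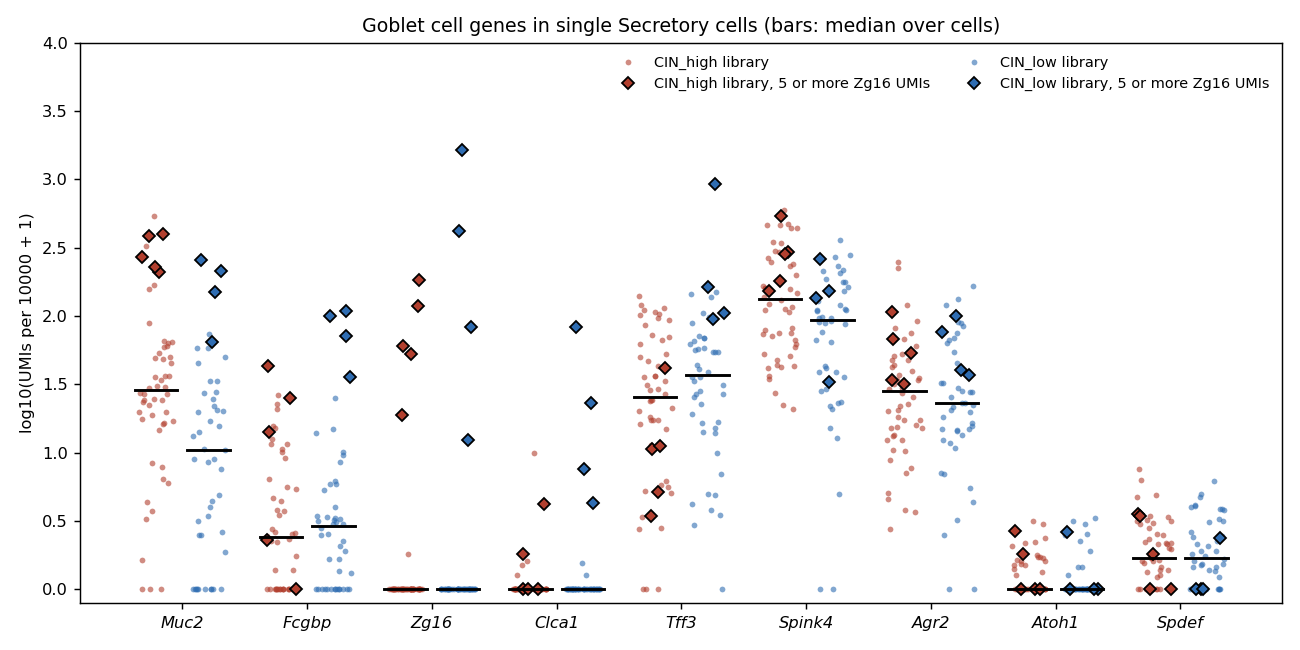
Each point is 1 Secretory cell (54 in the CIN_high library, red; 48 in the CIN_low library, blue), with log10(UMIs per 10000 + 1) of each gene on the vertical axis, the median as a bar and cells with 5 or more Zg16 UMIs as diamonds. Nearly all cells lie at 0 for Zg16 and Clca1, the Muc2 median is 27.7 in the CIN_high and 9.53 in the CIN_low library, and the diamonds lie in the upper part of the Muc2 points.

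The cells with at least 5 Zg16 UMIs were looked at one by one, a line chosen after the values were seen. In the CIN_low library 2 Secretory cells held nearly all of this transcript, with 637 UMIs (418 per 10000) and 597 UMIs (1643 per 10000, in a cell of 3634 UMIs), followed by cells with 59 and 7. In the CIN_high library the Secretory cells held 223, 144, 85, 35 and 14 UMIs, and 3 enterocytes held 26, 24 and 5. A CIN_high p57+_cancer_cell held 9, a Stem_cell_1 and a Proliferating cell 5 each, and a CIN_low Cancer_cell_1 cell held 6. None of these Secretory cells was marked as a doublet.

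The Secretory cells with Zg16 carried more mucin than the others in both libraries. Muc2 stood at 298 UMIs per 10000 in the 5 CIN_high cells and 49.3 in the other 49, and at 170 in the 4 CIN_low cells and 17.7 in the other 44. Fcgbp was at 16.2 against 4.07 and at 78.0 against 2.92, and Retnlb, an antibacterial peptide of goblet cells, at 33.4 against 1.49 and at 5.11 against 0.605. Guca2a, from the same list of goblet cell markers as Retnlb, was lower in the cells with Zg16, at 2.37 against 3.51 and at 4.15 against 5.47. Reg4, which marks deep crypt secretory cells, was lower in them, at 1.80 against 19.5 and at 6.19 against 10.9. Tff3 went opposite ways, at 13.4 against 41.0 in the CIN_high library and at 322 against 42.7 in the CIN_low library. This contrast was not tested. In the CIN_low library 1 cell of 3634 UMIs held 337 Tff3 UMIs (927 per 10000). The medians there were 133 in the 4 cells with Zg16 and 33.6 in the other 44. Of the 64 Clca1 UMIs of the CIN_low epithelium, 58 were in these 4 cells.

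Over the Secretory cells of 1 library the genes varied together only in part. Pearson's r of the log values, given as a description over 54 CIN_high and 48 CIN_low cells that share a library, was 0.64 and 0.52 for Muc2 with Spink4 and 0.46 and 0.53 for Fcgbp with Tff3. It was -0.28 and 0.33 for Muc2 with Tff3 and -0.13 and 0.49 for Tff3 with Spink4. For Zg16 with Clca1 it was 0.31 and 0.96, the latter in a library where 4 cells held 58 of 64 Clca1 UMIs. Atoh1 and Spdef, the lineage factors, had values of -0.060 and 0.20.

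Other genes were ranked by their likeness to the mean profile of the 9 genes, by the smaller of the r values of the libraries. Over 7 subtypes, where 1 high subtype sets r, the nearest of 12024 genes was Sval1, with r of 0.99 in both libraries and levels of 21.8 and 16.0 in Secretory cells. It was followed by the kallikrein Klk1, the mucin glycosyltransferase Gcnt3, the secretory pathway calcium pump Atp2c2, Rph3al, Surf4, Kcnma1, Ttyh1, Cracr2a and Chst4, a sulfotransferase. Within Secretory cells, over 7963 genes, Sval1 again came nearest (0.69 and 0.65), then Clec2h, Klk1, Prss32, Lypd8, B3galt5, Rep15, Gcnt3, Ckmt1 and Lgals4. Ranked from the other end by the larger of both r values, the least like were Hnrnph1 (-0.56 and -0.52), Cbx3, Hnrnpa2b1, Eml4 and Ncl, genes of RNA processing, chromatin, microtubules and the nucleolus.

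Whether the 9 genes were also expressed outside the Secretory cells was read against lymphocytes (274 and 507 T, NK and B cells). Their UMIs of these genes serve as a guide to free RNA. The thinned shares use the 211 and 404 lymphocytes with at least 2000 UMIs. Agr2 was expressed across the epithelium. At 2000 UMIs per cell it was expected in 12.5% and 15.2% of the epithelial cells outside the Secretory subtype and in 1.03% and 1.69% of lymphocytes; without thinning the shares were 39.3% and 43.6% against 2.19% and 3.35%, at depths of 14007 and 15398 against 3505 and 3904 UMIs. Enterocytes had the highest thinned share outside the Secretory cells, 24.7% and 26.9%, then Proliferating cells, 18.1% and 23.2%. The p57+_cancer_cell subtype had the lowest, 4.63% and 5.71%, still above lymphocytes.

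Fcgbp was low outside the Secretory cells but above lymphocytes, at 0.904% and 1.18% of thinned cells against 0.136% and 0.219%. In all lymphocytes Fcgbp had only 1 and 3 UMIs. Its share was largest in p57+_cancer_cell, the subtype named for a cell cycle inhibitor, where it reached 3.08% and 4.48% (11.7% and 13.3% without thinning, 14 and 55 UMIs). The next subtype was at 1.19% (CIN_high, Enterocyte) and 0.863% (CIN_low, Complement+_stem_cell). By mean level the same subtype came next after the Secretory cells in both libraries for Fcgbp (p57+_cancer_cell) and for Agr2, Tff3 and Clca1 (Enterocyte).

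For Muc2, Spink4 and Tff3 the comparison with lymphocytes depended on the library, the subtype and the measure. Muc2 was expected in 2.1% and 0.832% of thinned epithelial cells outside the Secretory subtype and in 2.07% and 0.879% of lymphocytes. The shares for Spink4 were 6.06% and 3.09% against 4.79% and 5.66%, and for Tff3 1.89% and 1.64% against 1.28% and 1.45%. By mean level the epithelial cells outside the Secretory subtype lay 1.91-fold and 1.17-fold above lymphocytes for Muc2 and 3.55-fold and 1.41-fold for Tff3, with ratios of 1.19 and 0.770 for Spink4. In the CIN_high library a single Igfbp+_cell cell held 312 of the 714 Muc2 and 499 of the 1876 Spink4 UMIs of these cells. No ratio to lymphocytes was computed without it. In UMIs per cell, which also carry the greater depth of epithelial cells, the CIN_high ratios were 7.05 for Muc2 (4.62 to 11.3), 14.3 for Tff3 (6.51 to 39.2) and 9.05 for Spink4 (6.74 to 12.5). In the CIN_low library they were 4.26 for Muc2 (2.25 to 9.08), 7.90 for Tff3 (4.81 to 13.9) and 2.97 for Spink4 (2.28 to 3.94). The thinned shares of Muc2 in both libraries and of Spink4 in the CIN_low library were thus near or below those of lymphocytes, whereas UMIs per cell lay above. How much of either was free RNA was not tested.

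By subtype the thinned shares of enterocytes exceeded those of lymphocytes for all 3 genes in both libraries, at 4.14% and 1.6% for Muc2, 10.45% and 7.44% for Spink4 and 5.52% and 5.82% for Tff3. In the CIN_high library Proliferating cells were at 3.64% for Muc2 and 3.27% for Tff3, Complement+_stem_cell at 3.57% for Tff3, and Stem_cell_1 at 7.97% for Spink4 and 2.21% for Tff3, each more than 1.5-fold above lymphocytes. By thinned share, CIN_low Proliferating cells stood below lymphocytes for all 3 genes, at 0.326% for Muc2, 2.49% for Spink4 and 1.22% for Tff3. By mean level they were also below for Muc2 and Spink4, but above for Tff3, at 0.266 against 0.135. In UMIs per cell their ratios were 1.78 for Muc2 (0.576 to 5.19), 1.96 for Spink4 (1.31 to 2.92) and 14.3 for Tff3 (8.36 to 26.1). Spink4 of CIN_high enterocytes lay below lymphocytes by mean level, at 0.642 against 0.691. The other enterocyte levels of these 3 genes lay above.

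Zg16 was found in CIN_high enterocytes above its background. It had a UMI in 15 of 107 of these cells (14%, and 5.45% after thinning), with 72 UMIs in all, and in 1 of 98 CIN_low enterocytes with 1 UMI. The thinned share in lymphocytes was 0.414% and 0.0587%. Of the 72 UMIs, 26, 24 and 5 lay in the 3 enterocytes listed above.

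Single cells outside the Secretory subtype carried large amounts of several genes. A CIN_high cell of the Igfbp+_cell subtype, with 17103 UMIs, held 312 Muc2, 499 Spink4, 52 Agr2 and 5 Spdef UMIs, and the whole subtype of 25 cells held 320 Muc2 UMIs. A Proliferating cell of 70421 UMIs held 376 Spink4 and 345 Agr2 UMIs. Neither was marked as a doublet. The S100a8/s100a9+_cell subtype, with 36 CIN_low cells but only 8 in the CIN_high library, stood at 1.06 for Muc2, 4.50 for Spink4 and 1.69 for Tff3 in the CIN_low library. Nearly all of these UMIs lay in 2 cells. One, of 8419 UMIs, held 26 of the 40 Muc2, 111 of the 169 Spink4 and 33 of the 75 Tff3 UMIs, and the other, of 19465 UMIs and marked as a doublet, held 14, 56 and 42.

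**Figure D4:**
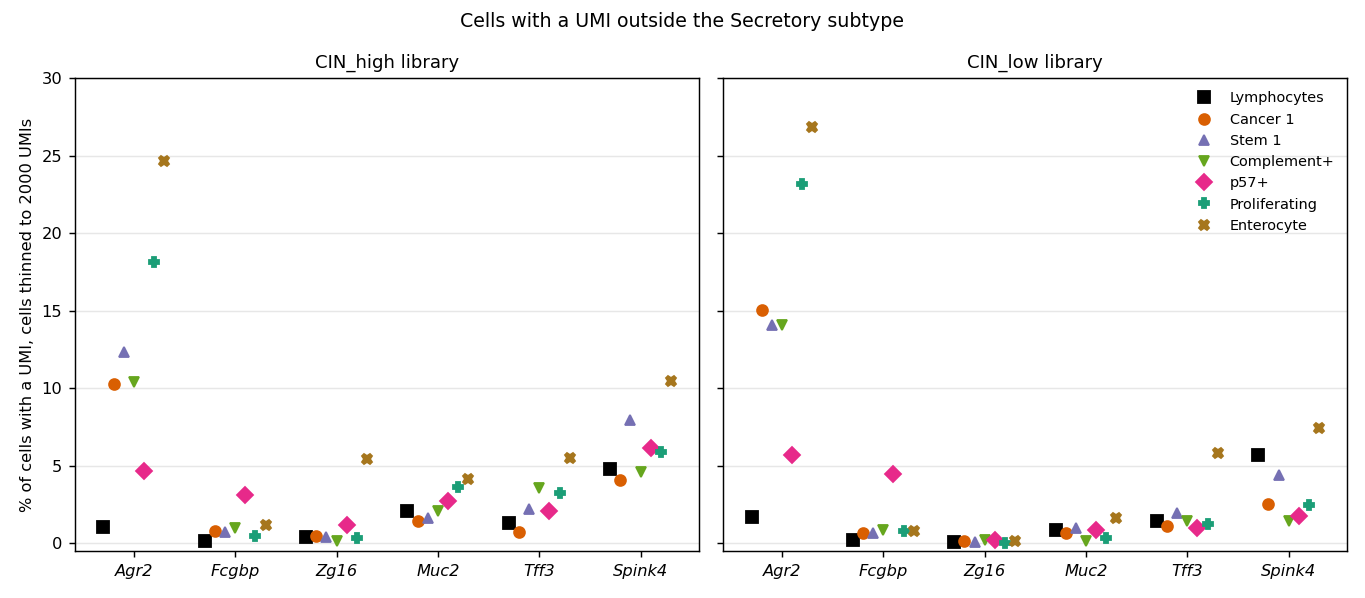
Expected percent of cells with a UMI of each gene after thinning to 2000 UMIs, with shallower cells left out. Lymphocytes (black squares) and 6 epithelial subtypes are shown for the CIN_high (left) and CIN_low (right) library. Agr2 lies above the lymphocytes in every subtype, Fcgbp is highest in p57+ cells (3.08% and 4.48%), and Muc2 and Spink4 lie around the lymphocyte squares.

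The UMIs of the 9 genes in cells that should not express them had a composition close to that of Secretory cells for some genes and not for others. Spink4 made up 54.0% and 45.7% of the UMIs of the 9 genes in Secretory cells, 50.6% and 55.0% in lymphocytes and 57.1% and 45.4% in myeloid cells. Muc2 made up 15.4% and 9.04% in Secretory cells, 24.7% and 9.01% in lymphocytes and 18.4% and 9.43% in myeloid cells. Agr2 took 15.6% and 15.4% in Secretory cells, 6.74% and 16.2% in lymphocytes, and 42.3% and 77.7% in the epithelial cells outside the Secretory subtype.

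Between the libraries, 3 of the 7 genes measured in epithelium were higher in CIN_high cells (Muc2, Spink4 and Spdef) and 1 was lower (Zg16). Over all 12987 genes measured in epithelium, 3.46% were higher and 7.1% lower. The median log2 ratio of the 7 genes was 0.24 and that of all measured genes -0.097. At a 2-fold line Muc2, Spink4 and Zg16 remained, where 1.24% of all genes were higher and 1.96% lower. Atoh1 and Clca1 were found in fewer than 2% of the cells and are given by their values.

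The Muc2 level was 3.31 in the CIN_high epithelium against 0.910 in the CIN_low epithelium (5514 and 1855 UMIs), a ratio of 3.63 (summed UMIs 4.42, 4.19 to 4.66). Muc2 was also higher in CIN_high lymphocytes, at 0.186 against 0.0563 from 22 and 10 UMIs (3.29-fold), and in myeloid cells, at 0.120 against 0.0416 (2.88-fold). In pericytes it was lower, at 0.0360 against 0.181 from 2 and 13 UMIs (summed UMIs 0.173, 0.0190 to 0.766). In UMIs per cell the epithelial ratio was 3.90 as counted and 3.89 with the UMIs per cell of lymphocytes subtracted. Spink4 stood at 8.20 and 3.25, a ratio of 2.52 (summed UMIs 3.00, 2.93 to 3.08), and was likewise higher in lymphocytes (0.691 and 0.394, 1.76-fold) and myeloid cells (0.436 and 0.196, 2.23-fold). In UMIs per cell its epithelial ratio was 2.65 as counted and 2.68 after the same subtraction.

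Spdef was at 0.0677 and 0.0398, a ratio of 1.70 from 131 and 90 UMIs (2.16, 1.64 to 2.86). With the subtypes given the same weights in both libraries its ratio was 1.27, under the line, while Muc2 stood at 2.43 and Spink4 at 1.73. Atoh1 had 60 and 21 UMIs and a ratio of 2.46 (4.24, 2.54 to 7.35). The share of Secretory cells, which carry most of these UMIs, was itself 4.10% against 2.78%.

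Zg16 was the gene that was lower, at 0.410 against 1.26 UMIs per 10000, 3.06-fold (summed UMIs 1.42-fold, 1.29-fold to 1.56-fold lower). The call rested on 1 CIN_low cell, the one with 597 UMIs at 1643 per 10000. Without it the CIN_low level was 0.304 and the ratio of CIN_high over CIN_low 1.35, the opposite direction. Without the top cell of both libraries the ratio was 0.893, inside the line.

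The remaining genes differed by less than 1.5-fold. Agr2 was at 2.54 and 2.15, Tff3 at 1.75 and 2.02, Fcgbp at 0.258 and 0.320 and Clca1 at 0.0492 and 0.0676. Summed UMIs put all 4 above 1 in the CIN_high library: 1.42 for Agr2 (1.37 to 1.46), 1.39 for Tff3 (1.33 to 1.45), 1.46 for Fcgbp (1.29 to 1.66) and 1.42 for Clca1 (0.980 to 2.04). Agr2 was lower in CIN_high cells of the largest subtype, Cancer_cell_1, at 0.697 against 1.20 (1.72-fold, summed UMIs 1.58-fold to 1.88-fold), where 33.0% and 39.7% of the cells had a UMI.

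In Secretory cells, where all 9 genes were measured, 2 were higher in the CIN_high library and 4 lower. Among 11800 genes measured in those 54 and 48 cells, 16.4% were higher and 21.2% lower, so that the line was often crossed there. Muc2 was 2.38-fold higher (2.19, 2.07 to 2.31) and Spink4 1.70-fold (1.52, 1.48 to 1.56). Fcgbp was 1.77-fold lower (1.13-fold, 0.977-fold to 1.30-fold by summed UMIs), Zg16 5.65-fold, Tff3 1.72-fold and Clca1 9.07-fold (12 and 60 UMIs). Agr2, Atoh1 and Spdef stood at ratios of 1.06, 1.19 and 0.976. At 2-fold, a line crossed upward by 8.73% and downward by 10.8% of all genes, 1 was higher (Muc2) and 2 were lower (Zg16 and Clca1).

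The lower calls of Fcgbp, Tff3 and Clca1 ended when the 5 and 4 Secretory cells with Zg16 were left out. For Tff3 the call already ended without the 1 highest cell of each library, at a ratio of 0.768, and by summed UMIs, at 0.729. Zg16 itself is not compared there, since its own UMIs chose the cells. The 4 CIN_low cells held 58 of the 60 Clca1, 210 of the 359 Fcgbp and 716 of the 3859 Tff3 UMIs of Secretory cells. They were chosen after the values were seen, so leaving them out shows where the UMIs lay and is no independent test. The levels were then 4.07 and 2.92 for Fcgbp and 41.0 and 42.7 for Tff3. Clca1 was left with 7 and 2 UMIs and a ratio of 11 whose interval by summed UMIs, 0.529 to 27.4, included 1. Muc2 was 2.79-fold and Spink4 1.65-fold higher among the remaining 49 and 44 cells. By the median over cells the ratio was 2.90 for Muc2 and 1.43 for Spink4, the latter under the line.

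**Figure D5:**
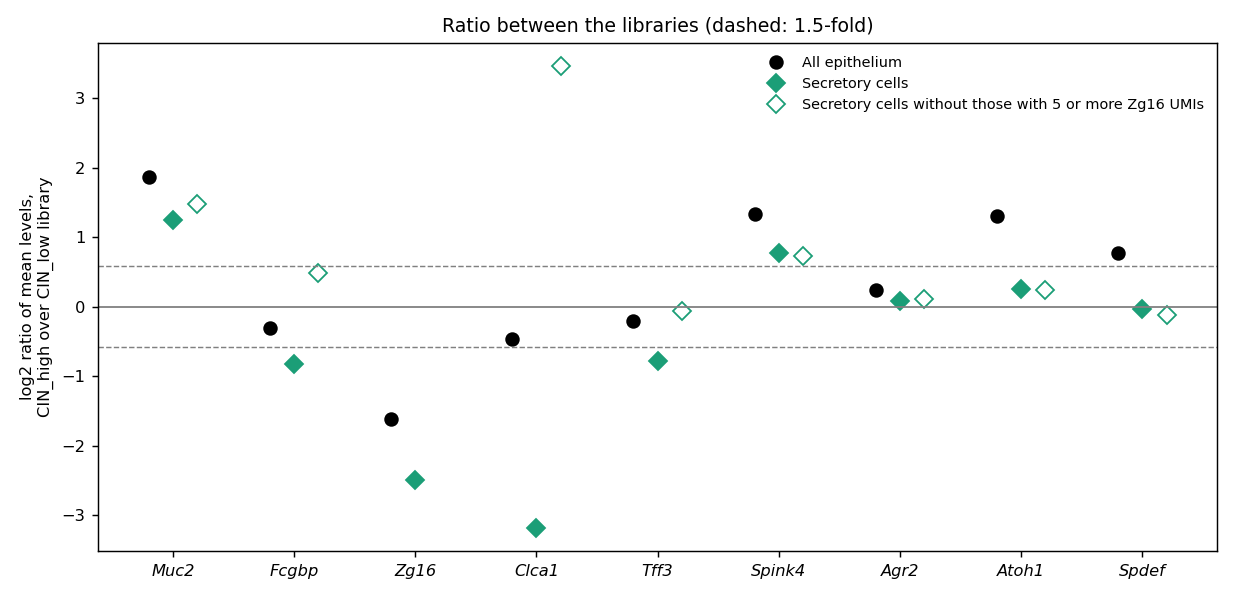
Log2 ratio of mean levels, CIN_high over CIN_low library, in all epithelial cells (black circles), in Secretory cells (filled diamonds) and in Secretory cells without those with 5 or more Zg16 UMIs (open diamonds, not drawn for Zg16); dashed lines mark 1.5-fold. Muc2 and Spink4 lie above the upper line in all 3 sets of cells, whereas Fcgbp, Tff3 and Clca1 leave the lower side when the Zg16 cells are left out.

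In the other subtypes the counts followed small numbers of UMIs. In Enterocyte 5 of 7 measured genes were higher and 0 lower, where 14.5% of all measured genes were higher and 22% lower. In p57+_cancer_cell 4 of 6 were higher and 1 lower (13% and 16.8% of all genes), in Complement+_stem_cell 4 of 6 and 0 (11.6% and 17.6%), in Cancer_cell_1 2 of 5 and 2 (4.93% and 7.7%), in Proliferating 2 of 5 and 1 (9.45% and 13.1%) and in Stem_cell_1 2 of 5 and 0 (7.57% and 11.8%). Over all epithelial cells but the Secretory ones 2 of 5 were higher and 0 lower (3.47% and 7.23%). In lymphocytes 2 of 4 were higher and 2 lower (12.2% and 14.1%), and in myeloid cells 2 of 4 and 0 (6.74% and 3.2%). Muc2 was higher in each of these epithelial subtypes and in lymphocytes, but few UMIs stood behind the CIN_low values: 5 in enterocytes, 7 in Proliferating cells and 1 in Complement+_stem_cell. The CIN_high UMIs lay in part in single cells. A single enterocyte held 56 of 81, a Stem_cell_1 cell 65 of 118, and separate Proliferating cells 57 and 46 of 127. In p57+_cancer_cell (10 and 18 UMIs) the interval of summed UMIs, 0.798 to 4.42, included 1.

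Related genes were taken from 5 lists of the mucus and secretory programme. Of 16 measured other goblet cell and mucus genes, 5 were higher in CIN_high epithelium and 1 lower, with a median log2 ratio of 0.29; here and for the next lists, 3.46% of all measured genes were higher and 7.1% lower, with a median of -0.097. Sval1 stood at 0.958 and 0.476 (2.01-fold), Clca4b at 2.01 and 1.25 (1.61-fold), and Lypd8, which keeps flagellated bacteria from the epithelium, at 12.0 and 7.77 (1.54-fold). Muc6 was 2.08-fold lower (0.0753 and 0.156). Retnlb was found in too few cells to be measured, at 0.230 and 0.0283 from 363 and 76 UMIs. The other 2 that were higher were Ang4 (0.920 and 0.610, 1.51-fold) and Rep15 (1.74-fold). Rep15 and Muc6 lie outside the rule for naming genes and were chosen after their values were seen. All these ratios are for the whole epithelium, of which Secretory cells made up 4.10% and 2.78%. Within Secretory cells Ang4 stood at 21.2 and 20.1, Lypd8 at 13.4 and 12.4, Sval1 at 21.8 and 16.0 and Rep15 at 1.85 and 1.11.

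Of 21 O-glycosylation and sulfation genes, whose enzymes build the sugar chains of mucins, 4 were higher and 0 lower (median 0.25). St6galnac6, a sialyltransferase, stood at 0.601 and 0.332 (1.81-fold), and the other 3 were Galnt5 (2.60-fold), Gcnt3 (1.73-fold) and B3gnt7 (1.6-fold), named after their values were seen. Within Secretory cells Gcnt3 stood at 1.36 and 1.36, B3gnt7 at 0.510 and 0.393, Galnt5 at 0.413 and 0.167 and St6galnac6 at 2.42 and 0.976. Among 23 genes of protein folding and the unfolded protein response 0 were higher and 1 lower (median -0.13), namely Sdf2l1, at 0.331 and 0.524 (1.59-fold lower). Ern2, the stress sensor of mucus-secreting cells, was at 0.309 and 0.303 and the secretory regulator Creb3l1 at 0.259 and 0.310. None of 14 granule exocytosis genes differed by 1.5-fold (median 0.14).

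Of 15 measured lineage transcription factors, 1 was higher and 1 lower (median -0.093). Cdx2, an intestinal homeobox factor, was at 0.0390 and 0.0163 (2.40-fold higher, named after its value was seen) and Foxa2 at 0.118 and 0.180 (1.53-fold lower). Klf4, which is needed for colonic goblet cells, stood at 1.88 and 1.95, Foxa1 at 0.831 and 0.952 and Foxa3 at 0.571 and 0.590. Hes1, the Notch target that holds Atoh1 down, was at 1.22 and 1.56. Gfi1 had 11 and 21 UMIs.

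The same lists set the Secretory cells apart from the other epithelial cells, where 13.1% (CIN_high) and 14.3% (CIN_low) of all measured genes were higher by 1.5-fold. The genes of O-glycosylation and sulfation were higher in 20 and 21 of 21 cases and those of folding in 15 and 17 of 23. Other goblet cell and mucus genes were higher in 10 and 12 of 16, granule exocytosis genes in 9 of 14 in each library and transcription factors in 8 of 15 in each library. Lower in Secretory cells by 1.5-fold were 4 goblet cell and mucus genes in each library, among them Clca4b (0.0116 and 0 against 2.1 and 1.29) and Muc6 (0 and 0 against 0.0785 and 0.161), 2 transcription factors in each library, 1 CIN_high exocytosis gene and 1 CIN_low folding gene. Klf4 stood at 6.69 and 6.83 in Secretory cells and Hes1 at 0.660 and 0.904, the latter below its level of 1.24 and 1.58 in the other epithelial cells.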

How the data were processed

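Single cells of 2 adenoma libraries, 1 per class, were measured by droplet RNA sequencing. Cell Ranger 2.1.1, Seurat and the build mm10 are named in the submitters' processing notes, with no role or order. The matrix as deposited by the authors holds natural log values, ln(1 + UMIs per 10000 UMIs of the cell), for 21041 genes and 14097 cells; cell type, epithelial subtype and CIN class are the authors' deposited annotation. All nonzero values came out as whole UMIs (100% within a tolerance of 0.01), with 801 to 109676 UMIs per cell.

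Levels are means over cells of UMIs per 10000. Ratios of summed UMIs have exact conditional binomial 95% intervals, and shares of cells have Clopper-Pearson intervals. Where a library had 0 UMIs, ratios used a floor of 3 UMIs. Shares at fixed depth are expected values after thinning each cell to 2000 UMIs. Shallower cells were left out, which kept 211 of 274 and 404 of 507 lymphocytes and 95 of 107 and 91 of 98 enterocytes. Doublets were treated by calling them per library with Scrublet in Scanpy 1.11.5 (expected 6%), which marked 142 (2.29%) and 249 (3.15%) cells, none of them a Secretory cell and 9 and 22 lymphocytes; marked cells stayed in, and an alternative left them out. No replicate existed, so no p-value was computed; the class comparison used UMIs as described and no count model.

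The 9 genes and all lists were chosen with earlier results of these data known. All 9 are named; of each of the 5 related lists, the text names the 2 genes with the largest and the 2 with the smallest ratio past 1.5-fold at 0.5 UMIs per 10000 or more, a fixed set of regulators, and the 10 genes most and 5 least like the 9. Likeness within Secretory cells used genes found in at least 10% of the cells. Gene positions are from the GRCm38 gene annotation, and promoters from a RefSeq table of GRCm38.p6, matched by symbol for 5 of 9 genes. Fold calls were tested on simulated counts for epithelial CIN_high against CIN_low cells over 12987 genes, 200 of them changed: 50 of 50 genes changed 2-fold and 47 of 50 changed 0.5-fold were called, as were 226 of 12787 unchanged genes (1.77%). The simulation gave each gene the same expected share of UMIs in every cell of a library, without subtypes or added spread between cells. These rates therefore do not describe genes held by few cells, such as Zg16. Python 3.11.15, numpy 2.4.6, pandas 2.3.3, SciPy 1.17.1 and matplotlib 3.10.9 were used. Alternatives changed the cell weighting, doublets, subtype mix, free RNA, scaling, extreme cells, thinning depth and fold line.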

Additional observations from a re-analysis of the deposited data

Results flagged for a closer look

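For 3 of the 9 genes the direction between the libraries went opposite ways in different epithelial subtypes, with intervals of summed UMIs that did not include 1 on either side; the difference between the subtypes was not tested. Ratios are CIN_high over CIN_low levels, and intervals are for summed UMIs. Zg16 had a ratio of 129 in enterocytes (72 and 1 UMIs, 15.6 to 3604) and of 0.177 in Secretory cells (504 and 1300 UMIs, 0.273 to 0.336). Clca1 had a ratio of 24.3 in enterocytes (18 and 3 UMIs, 2.19 to 39.8) and of 0.110 in Secretory cells (12 and 60 UMIs, 0.0765 to 0.293). Tff3 had a ratio of 7.50 in p57+_cancer_cell (38 and 23 UMIs, 3.34 to 10.1) and of 0.448 in Cancer_cell_1 (25 and 71 UMIs, 0.315 to 0.828). In p57+_cancer_cell 1 CIN_high cell held 34 of the 38 Tff3 UMIs: without the top cell of each library the ratio was 1.31 from 4 and 9 UMIs (0.350 to 5.57), so that the opposite direction rests on this cell. In Cancer_cell_1 it was then 0.516 (0.348 to 1.00). Without their top cells the Zg16 and Clca1 ratios kept their directions, at 0.426 and 0.146 in Secretory cells and at 50.3 for Clca1 in enterocytes from 10 and 1 UMIs (1.76 to 536); Zg16 had 48 and 0 UMIs in enterocytes. The thinned share of lymphocytes with a Tff3 UMI was 1.28% (CIN_high) and 1.45% (CIN_low).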

How the results depend on the processing

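No replicate could be left out, since each class is 1 library. No paired analysis was possible because each class has 1 library and the labels pair no samples. Of the 9 genes, the number higher in CIN_high epithelium (3) stayed within 1.5-fold under every alternative, from 2 to 4. Muc2 kept a ratio of 2.43 to 6.49 and Spink4 of 1.73 to 3.34, while Spdef ranged from 1.27 to 2.89. The number lower (1) was 0 by summed UMIs, without the Secretory subtype, without the 1% of cells highest for a gene, without the 1 highest cell and without Secretory cells with 5 or more Zg16 UMIs, and 3 with the same subtype weights. The Zg16 ratio of 0.327 reversed to 12.5 without the Secretory subtype and 21.8 without the highest 1% of cells, settings that by construction take out most Zg16 UMIs; Zg16 gets no value without the Zg16 cells. In Secretory cells the number lower (4) was 2 by summed UMIs, 2 at a 2-fold line and 3 without the 1 highest cell. It was 0 without the Zg16 cells and 0 by medians. The number higher (2) was 1 at 2-fold and 1 by medians. Without the Zg16 cells, which held most of the CIN_low Secretory UMIs of both genes, the ratios of Fcgbp (0.565) and Clca1 (0.110) reversed to 1.39 and 11. The cause was not tested beyond which cells were left out. The share of Secretory cells with 5 or more of the 9 genes moved with thinning depth, from 27.0% at 1000 to 63.4% at 4000 UMIs (CIN_high) and from 21.2% to 53.9% (CIN_low). The summed level of the 9 genes in CIN_low lymphocytes was 0.722, and 0.417 in B cells alone. Of single-gene values, 83 moved by less than their counting error, 84 moved further and 4 reversed. Among the 83 are those of the 9 genes in Secretory cells without doublets. These could not change, since no Secretory cell was marked. The alternatives on Zg16 cells, the 1 highest cell, UMIs per cell, the Igfbp+ subtype and all those in Secretory cells were added after seeing the data. Depth limits Atoh1, Clca1 and Spdef most, with 21 to 131 epithelial UMIs per library.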

Other observations

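Some values on the Secretory cells belong to none of the comparisons above. Lyz1, a lysozyme, stood at 69.4 (CIN_high) and 115 (CIN_low) UMIs per 10000 in them and at 0.305 and 0.435 in the other epithelial cells. The matrix protease Mmp7 stood at 43.7 and 47.5 against 3.26 and 3.14, and had a UMI in 71.4% and 76.3% of the other epithelial cells; in lymphocytes it was at 0.0939 and 0.228. Tuft cell markers summed to 0.395 and 0.511 in the Secretory cells, with UMIs of 5 and 7 of 11 genes. Myeloid markers were found there with UMIs of at least 3 genes in 5 of 54 CIN_high and 21 of 48 CIN_low cells, beside summed levels of 7.89 and 17.7 in the other epithelial cells; their part in the levels of the 9 genes was not tested.

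Zg16 UMIs were also found outside the epithelium. In the CIN_low library 1 pericyte held 25 of them. Atoh1 had 0 UMIs in the myeloid cells, endothelial cells and pericytes of both libraries.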
